A study of Mus musculus with 4 samples.

Results

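The translatome described here is that of cells labelled as proliferating wild-type (WT) mouse primary myoblasts, as seen in ribosome-protected RNA fragments. It was taken from the 2 WT libraries among the 4 libraries of the series, and its members are the 21900 genes listed as protein-coding out of 55573 genes in the deposited table. The cells had been released by enzyme digestion from hind-limb muscle of 3-week-old mice and were grown in DMEM with 10% fetal bovine serum and FGF, and both libraries are labelled as proliferation on day 2. The labels give the genotype only as WT. The paper describes the WT cells as controls for mice with an inducible eIF5A deletion, but it names the control genotype differently in different places. Alleles carried by these cells beyond the word WT are therefore not stated here. All cells had received cycloheximide, which stalls ribosomes on the mRNA, but the labels and the design text give different times for it. The sample titles call the assay polysome sequencing, whereas the extraction text describes RNase I digestion and recovery of the protected fragments, which is ribosome profiling. No label says that the libraries came from separate animals or cultures, so their spread may be technical.

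Myoblasts are the dividing descendants of muscle satellite cells. They hold the transcription factor MyoD, and when growth factors are withdrawn they switch on myogenin, leave the cell cycle, fuse and build the contractile apparatus. A ribosome shields a short stretch of the mRNA it sits on from nuclease, so the number of protected fragments from a gene depends on how much mRNA there is, how many ribosomes each mRNA carries, and how long the coding sequence is. No mRNA measurement was used here, and none of these contributions can be told apart. Fragments are given below as reads, recovered as whole numbers from the deposited RPKM (reads scaled by gene length and by library size), and as RPKM.

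The protein-coding genes held 269143 reads in WT library 1 and 217651 in WT library 2. This was 41.5% and 33.9% of all recovered reads, while the mitochondrial ribosomal RNA genes took 39.1% and 30.1%, the genes classed as misc_RNA 8.76% and 15.6%, and miRNA genes 4.30% and 16.8%. A read was found for 12123 protein-coding genes in library 1, for 11502 in library 2, for 10461 in both and for 13164 in either. Depth per gene was shallow. The median gene with a read had 10 reads in library 1 and 8 in library 2, and 0 reads in a library allowed a share of up to 0.00111% (library 1) or 0.00138% (library 2) of its protein-coding reads, taking 3 reads as the limit. Intervals and limits here cover counting error only, since PCR copies are not separate molecules.

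The cell type label was checked against marker genes. All 8 myoblast markers had reads in both libraries, 484 in library 1 and 298 in library 2, with a summed level of 242 and 194 RPKM. Myod1 was the best covered of them, with 157 reads (140 RPKM) in library 1 and 103 reads (117 RPKM) in library 2. Des, the muscle intermediate filament desmin, had 104 and 71 reads. Pax7, the satellite cell transcription factor, had 30 and 10 reads, Cdh15, the muscle cadherin, had 14 and 3, and Myf5 had 8 and 4. The 9 markers of differentiating muscle, Myog and Acta1 among them, held 469 and 80 reads (313 and 75.2 RPKM summed), more RPKM than the myoblast markers in library 1 and less in library 2. Fibroblast markers outweighed the myoblast markers in both libraries, with 1996 and 906 reads over 7 genes (458 and 267 RPKM summed). Dcn alone held 843 and 346 of these reads (240 and 126 RPKM). Without Dcn the fibroblast markers stayed above the myoblast markers by reads but were below them by summed RPKM, in both libraries. The name myoblast is used here as the label gives it, and the part of other cells in the levels was not tested. The 5 endothelial markers, led by Cdh5 with 180 and 126 reads, held 344 and 251 (108 and 100.0 RPKM). Immune markers were near the floor, with 28 and 25 reads over 5 genes, and the 3 Schwann cell markers had 64 and 19 reads. Of the smooth muscle markers Cnn1 had no read in either library. In bulk samples fewer cells of a type and less RNA per cell cannot be told apart.

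The signal was spread over many genes, and no gene held more than a few percent of it. The first gene by reads held 1.86% of protein-coding reads in library 1 and 2.24% in library 2, and these were different genes, Fth1 and Lama1. The 10 genes with most reads held 4.53% and 6.06% (5.30% ± 1.08, SD, n = 2), the first 100 held 15.2% and 18.3%, and the first 1000 held 46.5% and 49.9%. To reach 50% of reads took 1177 genes in library 1 and 1006 in library 2, and to reach 90% took 5752 and 5554. Per length, the signal was more concentrated. The 100 genes with highest RPKM held 21.5% of summed RPKM in library 1 and 27.1% in library 2, and 50% was reached with 832 and 532 genes. Library 2 was thus the more concentrated on both scales, and the Gini coefficient, which is 0 for an even spread and 1 when a single gene holds everything, was 0.807 and 0.819 for reads and 0.828 and 0.858 for RPKM. Of the 100 genes with most reads in each library, 61 were shared, and of the 100 with highest RPKM, 66 were shared.

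**Figure D1:**
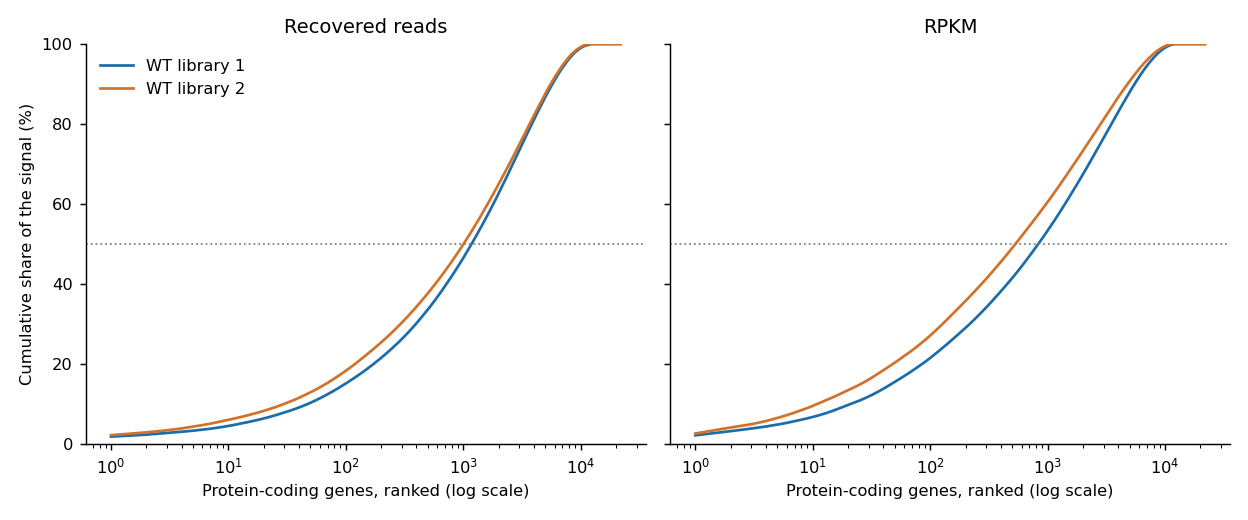
Cumulative share of the protein-coding signal (y axis, percent) against the number of genes ranked from highest to lowest (x axis, log scale), for recovered reads on the left and RPKM on the right, one line per WT library. The dotted line marks 50%, which was reached with 1177 and 1006 genes by reads and with 832 and 532 genes by RPKM.

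The 25 genes with the highest mean share of reads held 6.68% of the protein-coding reads in library 1 and 9.01% in library 2. Surface and matrix genes made up one group of them. Lama1 (chr17:67697259-67822647, plus strand, mm10) codes for the alpha 1 chain of laminin, a basement membrane protein. It had 1122 reads in library 1 and 4871 in library 2, or 192 and 1068 RPKM, and was rank 3 by reads in library 1 and rank 1 in library 2. Lrp1, a large endocytic receptor, had 1339 and 389 reads (125 and 46.6 RPKM). Hspg2, the basement membrane proteoglycan perlecan, had 704 and 344 reads (79.2 and 49.5 RPKM). Dcn, the small proteoglycan decorin, had 843 and 346 reads, and Sparc, a collagen-binding matrix protein, had 434 and 427. Spp1 (chr5:104435118-104441050, plus strand), the secreted phosphoprotein osteopontin, had 460 and 1520 reads (463 and 1958 RPKM). Of these 6 genes only Sparc had nearly equal reads in the libraries.

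Iron, redox and lipid genes were a further group among the 25. Fth1 (chr19:9980598-9985098, plus strand) codes for the ferritin heavy chain, which stores iron. It had 5018 reads in library 1 and 1148 in library 2 (2399 and 702 RPKM), so it was the first gene of library 1 and rank 3 of library 2. Hmox1, the haem-degrading enzyme, had 376 and 401 reads. Prdx1, a peroxidase, had 186 and 995 reads, and Plin2, which coats lipid droplets, had 289 and 779. In this group Hmox1 alone differed by less than 2-fold between the libraries.

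Cytoskeletal, chaperone and other housekeeping genes formed the next group. Actb, cytoplasmic beta actin, had 598 and 984 reads (370 and 780 RPKM), and Vim, the intermediate filament vimentin, had 639 and 770 (223 and 345 RPKM). Hsp90ab1, a cytosolic chaperone, had 625 and 498 reads, which is 346 and 352 RPKM. Eef2, the factor that moves the ribosome along the mRNA, had 629 and 466 reads, or 314 and 298 RPKM. Its gene also holds Snord37, a small nucleolar RNA with 118 and 22 reads of its own. Psap, the precursor of the saposins, had 588 and 439 reads (355 and 340 RPKM), and B2m, the light chain of MHC class I, had 591 and 414 (1140 and 1022 RPKM). For Hsp90ab1, Eef2, Psap and B2m the interval of the log2 ratio of library 1 over library 2 included 0, at -0.03 (95% exact interval -0.20 to 0.14), 0.08 (-0.10 to 0.25), 0.07 (-0.11 to 0.25) and 0.16 (-0.03 to 0.34).

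Regulators and receptors were also among the 25. Egr1, an immediate early transcription factor, had 671 and 382 reads (248 and 181 RPKM). Hes7, a transcriptional repressor known from the clock that segments the embryo, had 610 and 414 reads (559 and 486 RPKM), and Smad6, an inhibitor of BMP signalling, had 264 and 530 (137 and 351 RPKM). Thbd, the thrombin receptor thrombomodulin, had 433 and 576 reads, and Il1rl1, the receptor of interleukin 33, had 165 and 598. Itgb3bp, which codes for a centromere protein, had 327 and 716 reads. It overlaps Pgm1, Efcab7 and Gm26425 on the other strand, which together had 24 and 41 reads, and the strand rule of the counting is not stated. The mitochondrial genes mt-Nd5 (457 and 479 reads) and mt-Co1 (484 and 318) were the remaining members with Rplp1, which is described below.

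**Figure D2:**
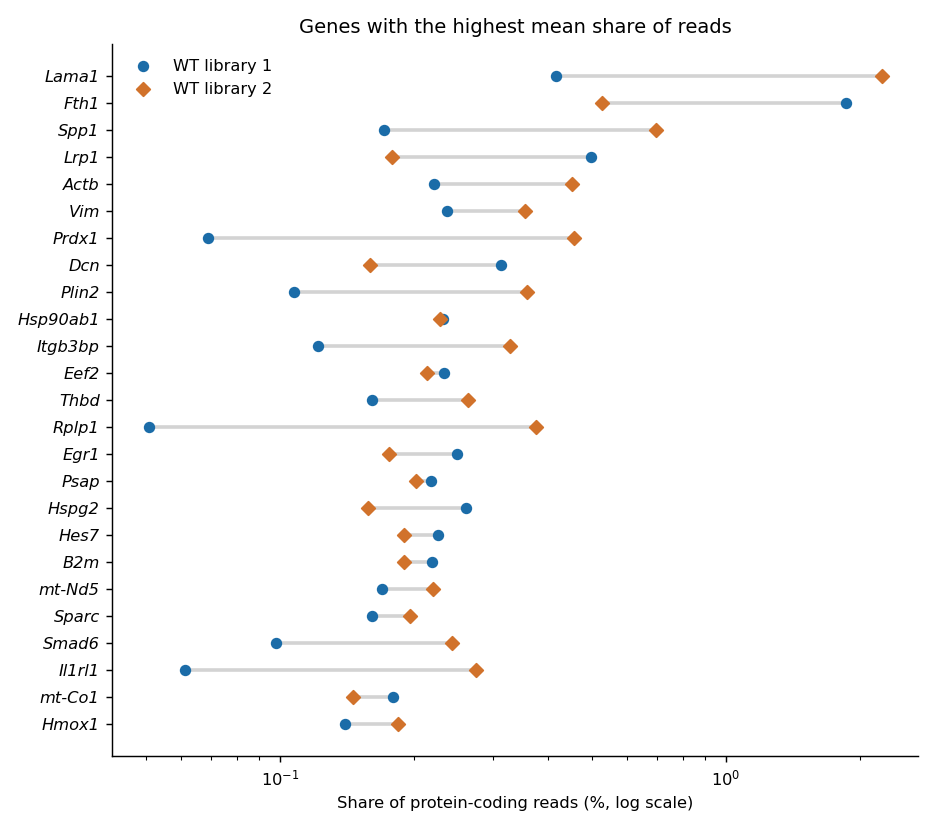
Share of protein-coding reads (x axis, percent, log scale) of the 25 genes with the highest mean share, with a circle for WT library 1 and a diamond for WT library 2, joined by a grey line. Lama1 lies at 0.417% and 2.24% and Rplp1 at 0.0509% and 0.374%, while the symbols of Hsp90ab1 nearly coincide at 0.232% and 0.229%.

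Ranked by mean RPKM among genes with at least 20 reads in each library, the first 25 genes held 10.1% of summed RPKM in library 1 and 14.7% in library 2, and 14 of them were also among the 25 by reads. This ranking favoured short genes, with a median coding sequence of 675 bases against 1398 for the 25 genes by reads. Rplp1 (chr9:61913284-61914542, minus strand), an acidic protein of the ribosomal stalk, stood first at 455 RPKM in library 1 and 3467 in library 2, from 137 and 815 reads. Small secreted or calcium-binding proteins entered here. Timp1, an inhibitor of matrix metalloproteinases, was at 220 and 846 RPKM, Lgals1, a galactose-binding lectin, at 208 and 715, and S100a6, a calcium-binding protein, at 104 and 888. Cryab, a small heat shock protein, was at 248 and 550 RPKM, Ifitm3, a membrane protein of antiviral defence, at 343 and 335, and Ccn1, a matrix-associated signalling protein, at 261 and 362. The ribosomal proteins Rpl8 (232 and 412 RPKM) and Rpl38 (162 and 450 RPKM) completed the translation genes. All of the genes named in this ranking from Rplp1 on, other than Ifitm3, were higher in library 2. Gm20594, a short gene with 85 and 128 reads (314 and 605 RPKM), is given as uncertain, since reads shared with near-identical copies could not be traced.

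The mitochondrially encoded genes, which are known to be translated inside the organelle, held 0.597% and 0.718% of protein-coding reads. By level mt-Nd6 (716 and 1043 RPKM), mt-Nd5 (416 and 557), mt-Co1 (520 and 437) and mt-Cytb (261 and 364) led. The complex I genes mt-Nd5 (MT:11742-13565) and mt-Nd6 (MT:13552-14070) lie on opposite strands and overlap only at their ends. Only reads in that short stretch may not be separable. Of the 13 genes, mt-Nd4l, mt-Co3, mt-Atp6 and mt-Co2 were listed at 0 in both libraries. These genes are used by every cell with respiring mitochondria, and a listed 0 for them is not a sign of absence.

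Ribosomal protein genes are usually among the most translated genes of a dividing cell. The 79 genes together held 1.65% of protein-coding reads in library 1 (4430 reads) and 2.22% in library 2 (4838 reads), and 4.17% and 6.61% of summed RPKM. All 79 had a read. Among the higher members of the small subunit were Rps29 (160 and 110 RPKM) and Rps6 (94.1 and 161), and the large subunit was led, after Rplp1 and Rpl8, by Rpl38 and Rpl4 (373 and 236 RPKM). The median member stood at 41.7 RPKM in the small and at 39.5 RPKM in the large subunit. Levels of these genes differ by annotation as well as by ribosomes, because the gene length used for RPKM equalled the union of all annotated exons for 99.3% of genes and takes in untranslated and retained stretches.

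Translation factors and their partners were read throughout. The 39 initiation factors held 0.933% and 0.960% of reads, led by Eif3g (51.0 and 139 RPKM) and by the poly(A)-binding protein Pabpc1 (77.4 and 70.1). The 11 genes listed for elongation and release held 0.497% and 0.556%, with Eef2, Eef1a1 (223 and 285 RPKM) and Tpt1 in front. Eif5a, whose protein carries hypusine made from the polyamine spermidine and helps ribosomes past consecutive prolines, had 50 and 73 reads (34.9 and 65.2 RPKM). Its paralog Eif5a2 had 0 and 3 reads. Odc1, the first enzyme of polyamine synthesis, had 56 and 92 reads (27.3 and 57.3 RPKM). The 13 polyamine genes together held 0.0884% and 0.0901% of reads.

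The extracellular matrix was one of the larger groups. The 38 matrix genes other than collagens held 2.33% and 2.16% of reads, the highest mean share of reads of the 34 lists (by summed RPKM the large ribosomal list was higher). Lama1 and Spp1 are not on this list, and with them added it held 2.92% and 5.10%, so that library 2 was the higher. The 17 collagens held 0.826% and 0.553%. Col4a1 (504 and 281 reads) and Col4a2 (321 and 215), the basement membrane collagens, led the collagens by level, followed by the fibrillar Col3a1 (395 and 119) and Col1a2 (293 and 168). The 36 genes of the actin cytoskeleton held 1.45% and 2.00%, led by Actb, the actin-binding profilin Pfn1 (112 and 230 RPKM) and Tagln2 (119 and 206 RPKM). Among chaperones of the endoplasmic reticulum Calr (293 and 200 reads), Hspa5 (409 and 302) and the collagen chaperone Serpinh1 (233 and 144) led, and the list held 0.895% and 0.772%.

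All 22 immediate early genes had at least 20 reads over both libraries, and they held 1.34% and 1.26% of protein-coding reads. After Ier3 (120 and 330 RPKM), the transcription factors Fos (205 and 226 RPKM), Egr1 and Junb (213 and 208 RPKM) had the highest levels, and Jun was at 211 and 177 RPKM. These genes are known to respond within minutes to serum or handling. Their median RPKM was 54.1, above the median of either ribosomal list. In the cell cycle list the inhibitor Cdkn1a led with 305 and 195 reads, ahead of Cdk4 (53 and 79) and the replication clamp Pcna (24 and 52).

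**Figure D3:**
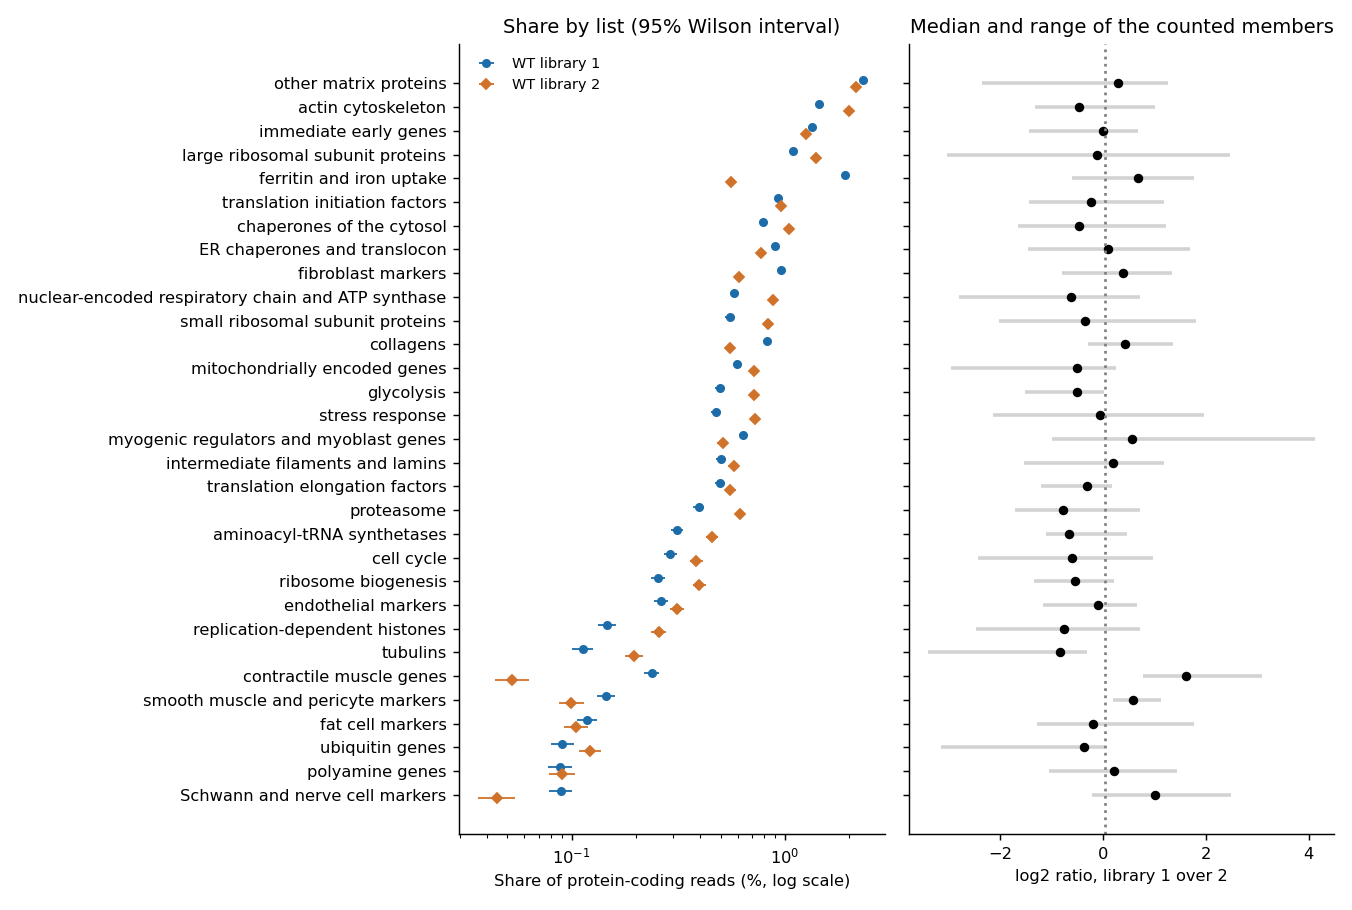
Left, share of protein-coding reads (x axis, percent, log scale) of each gene list with at least 4 members counted, with 95% Wilson intervals for counting error, for WT library 1 (circle) and WT library 2 (diamond). Right, median (point) and range (grey bar) of the log2 ratio of library 1 over library 2 in the counted members, with a dotted line at the median of all genes, 0.04. Ferritin and contractile muscle genes lie further left in library 2.

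The libraries were then compared gene by gene, as a description of a pair of libraries with no test. Over the 5709 genes with at least 20 reads over both, log2(RPKM + 1) correlated across genes with Pearson r = 0.825 and Spearman rho = 0.769, with genes not being independent replicates. The median log2 ratio of library 1 over library 2 was 0.04, and 50% of genes lay between -0.50 and 0.54. Library 1 was over 2-fold higher for 551 genes (9.65% of those counted) and library 2 for 530 (9.28%), so 81.1% of genes lay within 2-fold.

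The spread between the libraries exceeded counting error at every depth. For genes with 20 to 49 reads the SD of the log2 ratio was 0.97, where counting error alone gives 0.53, and 20.4% of genes were over 2-fold apart. For genes with 50 to 99 reads it was 0.83 against 0.36, and 16.3% were over 2-fold apart. For genes with 200 to 499 reads it was 0.95 against 0.17, and for the 64 genes with 500 or more it was 1.01 against 0.11. In that last group 16 of the 64 genes were over 2-fold apart.

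**Figure D4:**
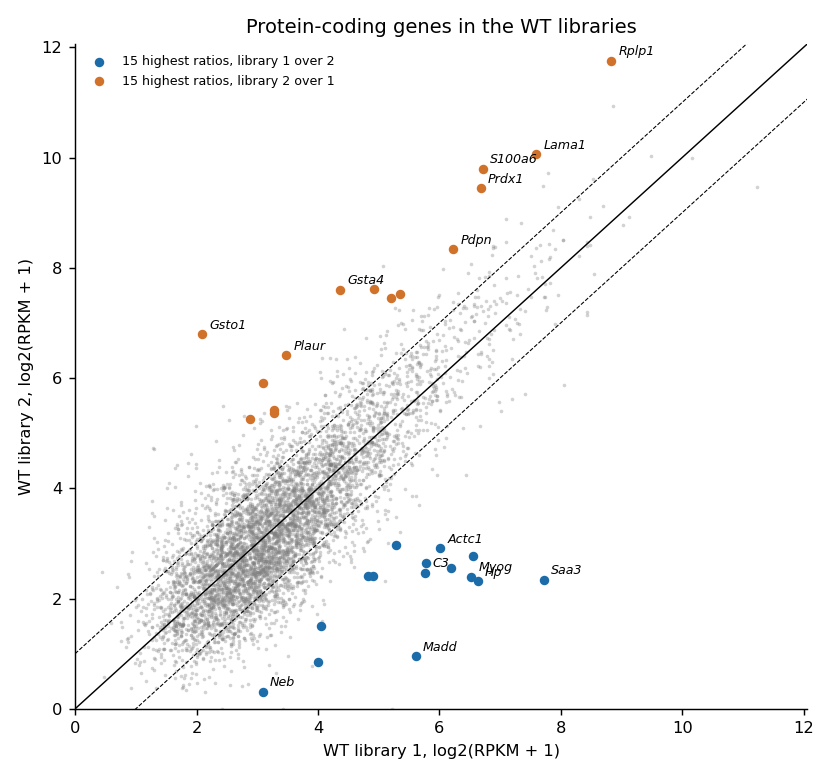
Level in WT library 1 (x axis) and WT library 2 (y axis), both as log2(RPKM + 1), for the 5709 genes with at least 20 reads over both libraries (grey). Blue and orange points are the 15 genes with the highest ratios in each direction, some of them named, the solid line marks equal levels and the dashed lines 2-fold. Saa3 lies at 211 and 4.07 RPKM and Rplp1 at 455 and 3467 RPKM.

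The 15 genes with the highest ratios in favour of library 1 are grouped here by known role, after their values were seen. Some are known from the acute phase and innate immunity. Saa3, serum amyloid A3, had 331 reads in library 1 and 5 in library 2, a log2 ratio of 5.69 (95% exact interval 4.46 to 7.33). Hp, haptoglobin, had 95 and 3 reads, Lcn2, the iron-siderophore carrier lipocalin 2, had 114 and 6, C3, the central complement component, had 165 and 11, and the chemokine Cxcl14 had 102 and 5. Others are muscle genes. Myog, myogenin, had 82 and 3 reads (91.0 and 4.26 RPKM), a log2 ratio of 4.42 (2.82 to 6.72). Actc1, the cardiac actin that is also made in young muscle, had 62 and 5, and Neb, the thin-filament protein nebulin, had 121 and 3. Among the other 7 genes were Madd (262 and 4 reads, log2 ratio 5.68), which codes for a regulator of Rab proteins, Igfbp4 (143 and 11), which binds insulin-like growth factors, and Ngfr, the low-affinity neurotrophin receptor (60 and 7). Ace, Enpp2, Emilin1 and Dpep1, all coding for enzymes or matrix proteins outside or on the cell, completed the 15, with 48 to 81 reads in library 1 and 2 to 10 in library 2.

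Genes with the highest ratios in favour of library 2 were mostly short. Their median coding sequence was 552 bases, against 1230 in the 15 genes above. Gsto1, a glutathione transferase, had 4 reads in library 1 and 105 in library 2, a log2 ratio of -5.07 (95% exact interval -6.97 to -3.67). Gsta4, another glutathione transferase, had 15 and 115 reads, and Prdx1 had 186 and 995. S100a6 had 86 and 572 reads, with a log2 ratio of -3.09 (-3.43 to -2.76), and its relative S100a11 had 11 and 42. Plaur, the urokinase receptor, had 16 and 104 reads, the matrix signalling gene Ccn2 had 11 and 50, and Pdpn, the surface glycoprotein podoplanin, had 81 and 275. Rplp1, Lama1 and Il1rl1, described above among the genes with most signal, also belonged here, at log2 ratios of -2.93, -2.47 and -2.21. Atp5e, a small subunit of ATP synthase (8 and 49 reads), Sf3b6, a splicing factor (15 and 56), the neuropeptide galanin Gal (14 and 72) and Esm1 (11 and 40) made up the 15.

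The muscle lists hold some of these genes, Myog, Actc1 and Neb among them, and are no independent support for them. Of 32 contractile muscle genes 26 had a read in library 1 and 21 in library 2. Only 7 were counted, and 5 of these, with 3 to 8 reads in library 2, owed most of their reads to library 1, so no median is given for them. Acta1, skeletal actin, had 119 and 30 reads, and Ttn, the giant sarcomere protein titin, had 173 and 26. The list held 0.237% of reads in library 1 (95% Wilson interval 0.220 to 0.257) and 0.0524% in library 2 (0.0436 to 0.0629). Of 25 counted myogenic regulators and myoblast genes, 8 were over 2-fold higher in library 1 and none in library 2, where 9.65% and 9.28% of all counted genes were. They included Myog and Hes6 (22 and 5 reads), while Myod1 (log2 ratio 0.25, -0.12 to 0.63), Des (0.20, -0.25 to 0.65) and Id3, an inhibitor of MyoD-type factors (259 and 273 reads), had smaller ratios. Myog and Hes6 met the read minimum through library 1 alone, so the count of 8 is no independent result about this list. Mymk and Mymx, which fuse myoblasts, had no read in either library.

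Markers of other cell types went both ways. Of 13 counted fibroblast markers 10 were higher in library 1, with a median log2 ratio of 0.39, but 1 passed 2-fold, where 9.65% of all counted genes did. Of 6 counted Schwann and nerve markers 5 were higher in library 1, including Ngfr and Sox10 (29 and 7 reads). The list held 0.0888% and 0.0446% of reads. Ngfr was named above for its high ratio, and Ngfr and Sox10 met the read minimum through library 1 alone. Their count is therefore no independent result about these markers. The 12 counted endothelial markers had a median of -0.11, with 6 higher in each library. Of 17 immune markers only 2 were counted, Cd14 (18 and 18 reads) and Cd68 (12 and 14). Both were higher in library 2 by RPKM, but the interval of each log2 ratio included 0. More immune markers had a read in library 1 (11) than in library 2 (7). Of 7 red blood cell genes 2 were counted, Hba-a2 (9 and 14 reads) and Hba-a1 (5 and 16), and both were higher in library 2 at few reads. The part of other cell types in the differences between the libraries was not tested.

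Several housekeeping groups were higher in library 2. Over all counted genes the median log2 ratio was 0.04, so slightly more of them lay on the library 1 side. The 29 counted proteasome genes had a median log2 ratio of -0.78, with 10 over 2-fold higher in library 2, where 9.28% of all counted genes were, and none in library 1. For the 20 aminoacyl-tRNA synthetases the median was -0.66, and 17 of 20 were higher in library 2. The 44 counted nuclear genes of the respiratory chain and ATP synthase had a median of -0.62, and 14 of them, Atp5e included, were over 2-fold higher in library 2. Tubulins (median -0.84, 7 of 7 counted higher in library 2), ribosome biogenesis genes (-0.55, 21 of 23) and glycolytic enzymes (-0.51, 15 of 16) lay on the same side. Of 20 counted chaperones of the cytosol (median -0.48) 16 were higher in library 2 and 6 over 2-fold, Cct8 (75 and 184 reads) and Cct6a (85 and 212) among them, whereas Hsp90ab1 and Stip1 (106 and 83 reads) had log2 ratios of -0.03 and 0.00. In the cell cycle list, 20 of 36 genes were counted, and 7 of these were over 2-fold higher in library 2, where 9.28% of all counted genes were. Among the 7, Ccnd1, cyclin D1 (15 and 47 reads), and Rrm2, a subunit of ribonucleotide reductase (5 and 27), reached 20 reads through library 2 alone. The count is therefore no independent result about this list. Mki67, a proliferation marker with a long coding sequence, had 56 and 20.

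Ribosomal protein genes did not move as one. Of 75 counted, 42 were higher in library 2 and 33 in library 1, with 13 and 5 over 2-fold and a median of -0.25, where 9.28% and 9.65% of all counted genes were over 2-fold higher in library 2 and library 1. Rplp1 stood towards one end, and Rpl13a (20 and 2), Rpl18 (149 and 34) and Rpl37a (124 and 32) at the other. Several of these genes have many processed copies in the genome, and their reads are uncertain where the counting could split them. In the stress response list the median was -0.07, but Nqo1 (35 and 112 reads), Txnrd1 (177 and 420) and Gclm (80 and 169), enzymes of quinone, thioredoxin and glutathione metabolism, were over 2-fold higher in library 2. The DNA damage gene Gadd45a (53 and 10) was over 2-fold higher in library 1.

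The ratio between the libraries varied with gene length. Counted genes were divided into 10 groups by coding length. In the group with the shortest coding sequences (median 459 bases) the median log2 ratio was -0.37, and 22.0% of genes were over 2-fold higher in library 2 and 7.16% in library 1. In the group with the longest (median 5742 bases) it was 0.52, and 0.876% and 16.8% were over 2-fold higher in library 2 and library 1. The medians of all 10 groups increased with length, and Spearman rho of the ratio with coding length was 0.33 across 5705 genes. It was 0.30 with the listed gene length, where the group medians ran from -0.46 to 0.43, so coding length and gene length were not told apart. Coding GC content showed a smaller trend (rho 0.14), and mean RPKM an opposite one (rho -0.24). Within each of 4 groups by GC content the median increased from the shortest to the longest of 4 groups by coding length, for example from -0.44 to 0.28 at the lowest GC and from -0.21 to 0.44 at the highest. The same held within each of 4 groups by mean RPKM, with medians from -0.43 to 0.24 for the group with the highest levels. Lrp1 and Hspg2 on the long side and Rplp1, S100a6 and Prdx1 on the short side went with this trend, whereas Fth1, with a coding sequence of 546 bases, and Lama1, with 9249, went against it. The part of length in the differences between gene groups was not tested.

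**Figure D5:**
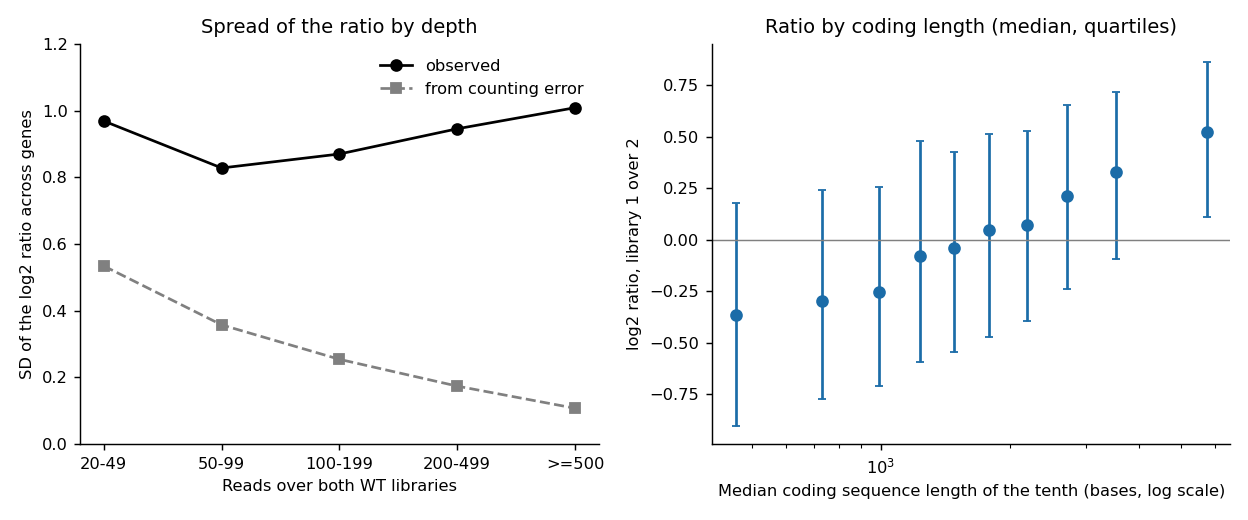
Left, SD across genes of the log2 ratio between the WT libraries (y axis) by the reads a gene had over both (x axis), as observed (black) and as counting error alone gives (grey, dashed), reaching 1.01 and 0.11 at 500 or more reads. Right, median log2 ratio of library 1 over library 2 with quartiles (bars) in 10 groups of genes by coding sequence length (x axis, bases, log scale), from -0.37 to 0.52.

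Reads were also summed by features of the encoded proteins. Consecutive prolines slow the ribosome, and eIF5A is known to relieve this. Of the genes with a coding sequence, 19.99% hold at least 3 proline codons in a row, as do 25.2% of those with a read. They took 33.0% of reads in library 1 and 26.4% in library 2, and 24.2% and 18.7% of summed RPKM. Such genes are long, with a median coding sequence of 2106 bases in genes with a read, against 1251 bases in the others, and among coding sequences of up to 4000 bases the shares were 27.0% and 22.9%, for 22.4% of the genes with a read. The median log2 ratio of the 1796 counted genes with such a run was 0.29. Of the 25 genes with most reads, 6 hold one, of which mt-Co1 is translated in mitochondria and the other 5 are nuclear genes. Myod1, Myog and Odc1 have at most 2 prolines in a row.

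The stretches below are shown because they are the longest proline runs of nuclear genes named above for their reads or their ratios that hold at least 3 prolines in a row. Egr1 also holds 3 and is not shown. They were taken from the longest GENCODE M21 coding sequence of each gene on the coding strand, 5′ to 3′, and capitals mark the proline codons (CCN, in frame). The runs lie in coding exons at chr11:69122908-69122925 (plus strand) for Hes7, chr9:64012255-64012266 (minus strand) for Smad6, chr4:137510993-137511004 (plus strand) for Hspg2, chr10:127584728-127584736 (minus strand) for Lrp1, chr11:95571914-95571922 (minus strand) for Ngfr and chr9:78209126-78209134 (plus strand) for Gsta4, in GRCm38.
Hes7: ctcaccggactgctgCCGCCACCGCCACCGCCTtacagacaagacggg
Smad6: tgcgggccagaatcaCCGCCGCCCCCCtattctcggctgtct
Hspg2: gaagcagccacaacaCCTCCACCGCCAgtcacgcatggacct
Lrp1: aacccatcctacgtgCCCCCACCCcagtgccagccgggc
Ngfr: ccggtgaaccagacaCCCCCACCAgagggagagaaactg
Gsta4: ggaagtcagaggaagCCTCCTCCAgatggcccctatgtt
Hes7 holds 6 prolines in a row, from codon 198 of 225, Smad6 and Hspg2 hold 4, and Lrp1, Ngfr and Gsta4 hold 3. Their log2 ratios went both ways, from 2.74 for Ngfr, 1.43 for Lrp1, 0.68 for Hspg2 and 0.20 for Hes7 to -1.36 for Smad6 and -3.29 for Gsta4. Where the reads of these genes lay in relation to the runs is not given by a table of gene totals.

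The amino acid composition that the reads represent was close to that of the average gene. Over the 13136 nuclear genes with a read, each gene counted equally, leucine made up 10.0% of residues, and weighting by reads gave 9.45% in library 1 and 9.49% in library 2. Aspartate went from 4.85% to 5.24% and 5.29%, and lysine from 5.87% to 6.12% and 6.21%. Proline, at 6.05% with equal weights, was 6.32% in library 1 and 5.97% in library 2, so that it moved in opposite directions.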

How the data were processed

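Ribosome-protected fragments of 2 WT primary myoblast libraries were analysed. The authors deposited RPKM values per gene. According to the methods, low-quality, rRNA and tRNA reads were removed, reads were mapped with Tophat2 to mouse (Ensembl 97 annotation, and mm10 per the labels) and counted with HTSeq, and versions and strand rules are not given in the sources used here. RPKM multiplied by the deposited gene length and by the library size was a whole number for 100% of values above 0 (tolerance 0.01 read), and these reads were used as whole reads. The implied library sizes, 602863 and 471136, were 0.930 and 0.733 of the recovered reads (648386 and 642429), so a further scaling may be contained in the RPKM. Coding sequences (99.1% of protein-coding genes) came from GENCODE M21, as no protein table was used.

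Since there is 1 library on each side and 1 group, no test was run. Shares carry 95% Wilson intervals, ratios exact (Clopper-Pearson) intervals on the unadjusted RPKM ratio, and calls of over 2-fold use log2(RPKM + 1) in genes with at least 20 reads over both libraries. Gene lists hold 761 genes, and Ctgf and Cyr61 were matched as Ccn2 and Ccn1. The text names the 25 genes with the highest mean share of reads, the 25 with the highest mean RPKM (20 or more reads in each library), the 15 highest and 15 lowest ratios among genes with 50 or more reads, the 4 highest members of each list, and Eif5a, Eif5a2, Myod1, Pax7, Myf5, Myog and Odc1. Other genes named are cell type markers or list members chosen after their values were seen. Members and lists were chosen with earlier results of these data known. Alternatives covered the unit, the genes in the total, filters, the pseudocount, scaling, the fold and each library alone. Software was Python 3.11.15 with pandas 2.3.3, numpy 2.4.6, scipy 1.17.1, Biopython 1.88 and matplotlib 3.10.9, with the scripts tested on simulated libraries. The eIF5A-KO libraries were not analysed here, and some genes that the rule names are not reported here.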

Additional observations from a re-analysis of the deposited data

How the results depend on the processing

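Of 163 alternative values from both libraries, 94 stayed within the limits set for them (1 SD of the libraries, 1.5 times a count) and 69 moved. A single library always lies within 1 SD of a mean of 2, so each library alone is given as a range and says nothing about stability. No paired analysis was possible because only 1 group was used and the results come from no test. With the RPKM share in place of the read share, the first 10 and 100 genes held 8.17% and 24.3%, 50% was held by 682 genes and the Gini coefficient was 0.843, against 5.30%, 16.7%, 1091.5 genes (mean) and 0.813 by reads. With all gene biotypes in the total these were 55.3%, 63.6%, 6 genes and 0.967, and with reads per kilobase of coding sequence, chosen after seeing the data, 7.95%, 22.7%, 713 genes and 0.841. Leaving out Fth1 and Lama1 (also chosen after seeing the data) left 3.34% for the first 10 genes, and keeping only genes with 20 or more reads gave a Gini coefficient of 0.508. Each library alone (without WT replicate 1 or 2) gave 4.53% to 6.06% for the first 10 genes, 15.2% to 18.3% for the first 100, 1006 to 1177 genes and a Gini coefficient of 0.807 to 0.819.

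With at least 50 reads over both libraries, Pearson r was 0.846 and Spearman rho 0.810, and 213 and 222 genes were over 2-fold higher in library 1 and 2. With every gene with a read these were 1556 and 1545. At 4-fold, over the genes with at least 20 reads, they were 42 and 62. The library with more such genes, library 1 by 551 to 530, was therefore library 2 with 50 or more reads and at 4-fold. The difference of medians between the longest and shortest of 10 groups by coding length, 0.89, was 0.99 with a pseudocount of 0.1 and 0.57 over every gene with a read. Neither scaling alternative moved a count by over 1.5 times. For the pair of libraries no library could be left out.

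By summed RPKM, the small and large ribosomal lists held 1.55% and 3.84%, other matrix genes 2.41% and myogenic genes 0.769%. With Lama1 and Spp1 added (chosen after seeing the data) the matrix list held 4.01% of reads and 3.87% of RPKM, so its order with the large ribosomal list by RPKM rests on them. By reads per kilobase of coding sequence (chosen after seeing the data) these were 1.75%, 3.24%, 1.88% and 0.852%, and ferritin and iron genes held 2.74%. Each library alone gave 0.552% to 0.830%, 1.09% to 1.39%, 2.16% to 2.33%, 0.511% to 0.639%, 0.561% to 1.91% for ferritin and iron, and 0.0524% to 0.237% for contractile genes. Genes with 3 prolines in a row held 29.7% of reads on average, 21.4% by RPKM, 24.96% without coding sequences over 4000 bases (chosen after seeing the data) and 26.4% to 33.0% in each library alone, and the proline percent was 5.97% to 6.32%.

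Depth limits single genes. The 6008 and 6229 genes with fewer than 10 reads in a library held 8.64% and 11.2% of its reads.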

Other observations

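Some lists fixed for this tissue have not been described above. Of 65 replication-dependent histone genes, 49 had a read and 11 were counted, and the list held 0.147% and 0.256% of protein-coding reads in library 1 and library 2. Hist1h1b (37 and 54 reads) and Hist1h1a (38 and 45), linker histones, had the highest levels, and histone reads are uncertain because the copies are nearly identical. Of the 6 genes for ubiquitin and its conjugation, Uba1, the activating enzyme, had 149 and 137 reads, while Ubb, which encodes polyubiquitin, had 3 and 27. Intermediate filaments and lamins held 0.4997% and 0.575%, with Lmna (lamin A) at 183 and 236 reads, Plec (plectin) at 329 and 108 and Lmnb1 (lamin B1) at 8 and 21.

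Smooth muscle and pericyte markers held 0.145% and 0.0997%, led by Acta2 (130 and 76 reads). All 5 counted members were higher in library 1, but 1 passed 2-fold, where 9.65% of all counted genes did. For Acta2, Des and Rgs5 the interval of the log2 ratio included 0. Fat cell markers held 0.119% and 0.105%, led by Fabp4 (84 and 123 reads), with Lpl, lipoprotein lipase, at 173 and 36 and Adipoq at 4 and 3. Immune markers held 0.0212% and 0.0244%, and Itgam, Cd3e and Cd79a had no read in either library. Red blood cell genes held 0.00929% and 0.0230%, with Hba-a1 at 5 and 16 reads. Genes with stretches like ribosomal RNA held 0.0587% and 0.0450%, with Lars2 at 112 and 58 reads.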
